A study of Mus musculus with 14 samples.

Results

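Ribosomal protein genes encode the proteins of the cytosolic ribosome. They were taken here as the genes whose array annotation symbol is Rpl or Rps followed by a digit and a short ending, without pseudogenes and the S6 kinases, together with Rplp0, Rplp1, Rplp2 and Rpsa. This gave 49 genes among 18194 genes that had a probe set of their own, 26 of the large subunit (Rpl) and 23 of the small subunit (Rps). A probe set is a group of short probes for 1 transcript. Values are log2 expression values of whole mouse lung on 14 Affymetrix arrays. Where a gene had more than 1 probe set, the brightest on average was used. The arrays were labelled Control (n = 4, PBS), VALI (n = 4, ventilated for 4 hours at 40 ml/kg tidal volume), PBEF+/- (n = 3, without ventilation) and VILI PBEF+/- (n = 3, ventilated in the same way). The series text names 30 ml/kg instead, and mentions recombinant human PBEF put into the airway. Animals of the first 3 groups were 18 to 22 weeks old and those of VILI PBEF+/- were 8 to 12 weeks old, so age and ventilation cannot be told apart within the PBEF+/- labels. No strain is given in the labels, every sample is described there as coming from a control animal, and PBEF+/- is used only as a label because its meaning, a genotype or a protein given, is not settled. PBEF is the product of Nampt, an enzyme of NAD salvage that is also secreted.

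The cytosolic ribosome joins a large subunit, which forms peptide bonds and holds the exit tunnel, to a small subunit, which reads the messenger RNA. Most messenger RNAs of ribosomal proteins begin with a C and a run of pyrimidines, the terminal oligopyrimidine tract, through which mTOR signalling and the LARP1 protein control their translation together. Their abundance in a tissue is high and even, and some family members have paralogs with tissue-restricted expression.

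The arrays showed the lung: the means of 4 alveolar type I markers lay between 13.0 and 13.9 and those of 3 type II markers between 14.5 and 15.0. Several arrays stood apart from their groups before any ribosomal protein gene was considered. Il6, an inflammatory cytokine, read 10.3 to 12.7 in VILI PBEF+/-, 9.60 to 9.85 in VALI replicates 1 to 3 but 2.78 in VALI replicate 4, and the PBEF+/- arrays gave 2.10, 2.56 and, in replicate 3, 10.87. Results that rest on VALI replicate 4 or PBEF+/- replicate 3 are therefore given with and without them. These 2 arrays were picked from their own values, so results without them are not independent evidence. Control replicates 1 and 4, VALI replicate 4 and PBEF+/- replicate 2 read Eif2s3y, a Y-linked gene, above Xist, and the other 10 arrays showed the female pattern. Both patterns occurred in Control, VALI and PBEF+/-, so the arrays of each of these groups were not all from 1 animal. No label says that every array comes from a separate animal. The p-values here reflect only the scatter among these samples, part of which may be technical.

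RefSeq holds 51 start sites (GRCm38.p6) for 43 of the 49 genes. The 30 bases around the start, 10 before it and 20 from it on, held a run of at least 6 C or T bases in 28 of the 51 sites, or 54.9%, against 28.7% of 32851 start sites of all genes. The letters CCGGAA, or TTCCGG on the other strand, lay within the 300 bases around the start in 28 of 51 member sites, also 54.9%, against 14.9% of all start sites. The following windows, of 7 genes picked from the results below, are examples that differ in this feature and not a full list of called genes. Capitals mark the longest run of at least 6 C or T bases, and a window without capitals holds none.
Rplp2, chr7:141447641-141447670, plus strand: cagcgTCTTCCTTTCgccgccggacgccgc
Rpl38, chr11:114668570-114668599, plus strand: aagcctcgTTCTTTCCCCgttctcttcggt
Rps18, chr17:33955646-33955675, minus strand: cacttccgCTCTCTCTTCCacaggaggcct
Rpl12, chr2:32961702-32961731, plus strand: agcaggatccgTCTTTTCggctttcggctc
Rps25, chr9:44407704-44407733, plus strand: ccgacatcttagcgaggctgctgtggtcta
Rps4x, chrX:102189372-102189401, minus strand: gctgggcggagcaacccaggctccagcgcg
Rpl7l1, chr17:46782637-46782666, minus strand: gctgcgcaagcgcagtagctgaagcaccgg
The runs of Rplp2, Rpl38 and Rps18, of 10, 10 and 11 bases, span the annotated start, and that of Rpl12, of 7 bases, begins just after it. Rps25, Rps4x and Rpl7l1 hold no such run in this window. Neither does Rpl22, also described below but not shown, with longest runs of 3 and 5 bases at its annotated starts. These are descriptions of the annotated starts, which can differ from the starts used in lung.

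Ribosomal protein genes varied little across the 14 arrays. Of the 49 genes, 46 exceeded the array median in at least 3 arrays and were tested among 11360 genes. The untested 3 were Rps16, Rpl39l and Rpl3l. For Rps16 this holds for its own probe set, as bright probe sets annotated to it with other symbols had means of 14.31 and 15.54. The mean log2 value was above 12 for 36 genes, called bright below, and 12 or less for 10 of the tested genes. Rpl39, a small protein of the exit tunnel, was among the latter, with values from 7.35 to 7.58 over all arrays. A probe set annotated to Rpl39 and Gm32211 had a mean of 15.34, so a dim probe set need not mean a scarce transcript. The range of a gene over all arrays had a median of 0.34 in the 36 bright genes, and 35 of them, or 97.2%, stayed within 0.5 log2 units. Among all 1128 tested genes with a mean above 12, the median range was 0.61 and 33.3% stayed within 0.5. The exception was Rps9, a small subunit protein, with 14.74 in PBEF+/- replicate 2 and 13.71 in VILI PBEF+/- replicate 3. The 10 dimmer genes had a median range of 0.86, the widest of which was 2.59 for Rpl12. Another 110 probe sets were annotated to a ribosomal protein symbol together with other symbols, mostly close copies. They were kept out of the gene values, and 31 ribosomal protein symbols, such as Rpl3, Rpl5 and Rplp1, occurred only there.

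On average, bright ribosomal protein genes read slightly lower in the ventilated groups, in VALI by about as much as all genes tested. The median of the 36 genes, each set against its own mean over 14 arrays, was 0.06 ± 0.04 (SD, n = 4) in Control and 0.00 ± 0.08 (n = 4) in VALI. It was 0.03 ± 0.03 (n = 3) in PBEF+/- and -0.11 ± 0.04 (n = 3) in VILI PBEF+/-. By array, this median was 0.04, 0.06, 0.02 and 0.11 in Control, then -0.04, -0.08, 0.01 and 0.11 in VALI. It was 0.05, 0.03 and -0.01 in PBEF+/-, and -0.11, -0.07 and -0.13 in VILI PBEF+/-. VALI overlapped Control because VALI replicate 4 read nearly as high as the highest Control array, whereas the 3 VILI PBEF+/- arrays lay below all PBEF+/- arrays. No array's median was farther from 0 than 0.13. The median over all genes tested, taken in the same way, averaged 0.06 in Control and 0.01 in VALI. It averaged -0.01 in PBEF+/- and -0.06 in VILI PBEF+/-. The 80 bright probe sets annotated to a ribosomal protein and other symbols averaged 0.07 in Control, -0.01 in VALI, 0.04 in PBEF+/- and -0.11 in VILI PBEF+/-. Marker lists of lung and blood cells differed in direction, and only some moved with these medians. The mean of 3 club cell markers was 15.04 to 15.25 in Control, 14.71 to 15.03 in VALI, 14.90 to 15.06 in PBEF+/- and 14.51 to 14.70 in VILI PBEF+/-, and all 3 were called lower in the average ventilation difference (median -0.41). The mean of 3 measured B cell markers was 8.91 to 9.51, 7.83 to 10.26, 8.52 to 9.73 and 7.26 to 8.35 in the same order, highest in VALI replicate 4, with 0 of 3 called. Macrophage marker means went the other way in VALI, at 10.20 to 11.59 against 8.78 to 10.10 in Control. They overlapped between PBEF+/- (9.81 to 10.27) and VILI PBEF+/- (9.85 to 10.43). Neutrophil markers, given below beside Rpl12, were higher in most ventilated arrays, and type II marker means overlapped between the groups. The part of any of these cells in the ribosomal protein values was not tested.

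**Figure D1:**
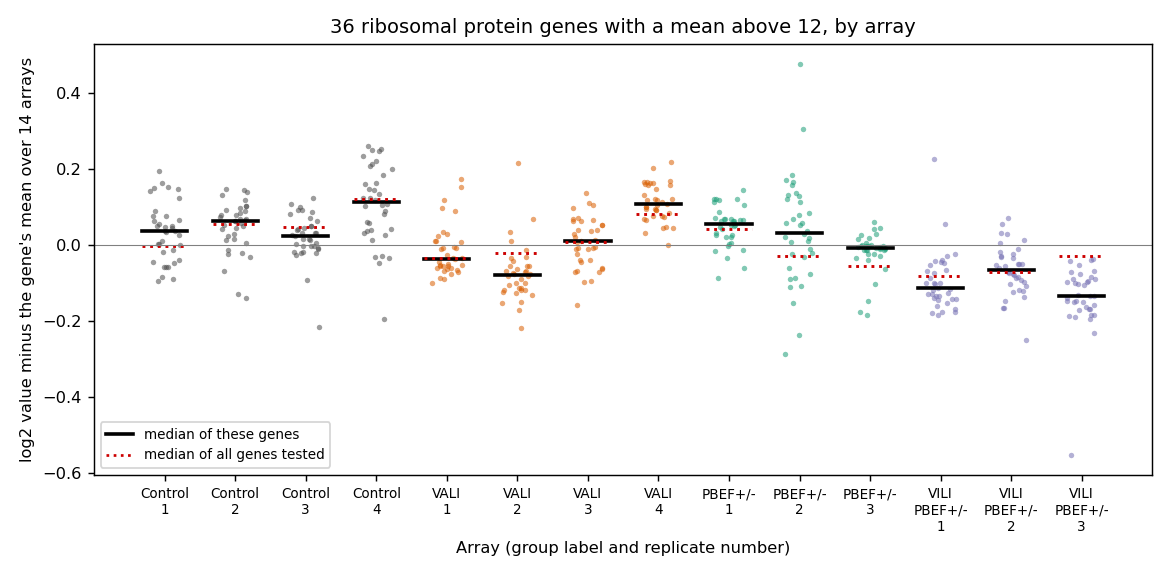
Each point is 1 of 36 ribosomal protein genes with a mean above 12, as its log2 value minus that gene's mean over 14 arrays (y axis), for each array (x axis, coloured by group label). The black bar is the median of these genes and the dotted red bar the median of all genes tested; VILI PBEF+/- lies lowest, from -0.07 to -0.13, and VALI replicate 4 lies at 0.11 with Control replicate 4.

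Tested gene by gene in limma, with p-values adjusted by the Benjamini-Hochberg method over 11360 genes, 0 of 46 genes were called at an adjusted p under 0.05 in VALI against Control. There, 0% of all genes were called. At an unadjusted p under 0.05, 3 members (6.52%) and 2075 of all genes (18.3%) passed in limma, and the median log2 difference was -0.06 for members and -0.06 for all genes. In VILI PBEF+/- against PBEF+/-, limma again called 0 members and 0% of all genes, and 11 members (23.9%) and 20.7% of all genes passed an unadjusted p under 0.05. The median was -0.10 for members and -0.05 for all genes. Averaging both ventilation differences, which combines these comparisons and adds no evidence beside them, limma called 2 of 46 members (4.35%) and 8.36% of all genes. Of all members, 38 were below 0 in that average, or 82.6%, beside 57.3% of all genes, with medians of -0.07 and -0.05. None of these counts of called members exceeded its background.

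In VILI PBEF+/- every array lay below every PBEF+/- array for 20 of 46 members (43.5%), while 10.8% of all genes tested and 13.6% of the 1128 bright genes did so. These 20 genes were Rplp2, Rpl6, Rpl7, Rpl7a, Rpl8, Rpl10a, Rpl11, Rpl13a, Rpl22, Rpl38, Rps3a1, Rps4x, Rps14, Rps18, Rps19, Rps20, Rps26, Rps28, Rps29 and Rpsa, named because of this separation. They all were bright genes, 20 of 36. The opposite separation was met by 3 members (6.52%) and 8.47% of all genes. VALI lay below Control in every array for 0 members and 5.98% of all genes. Without VALI replicate 4 and PBEF+/- replicate 3, these counts of lower members became 10 (21.7%) in VALI, where 23.1% of all genes were lower, and 23 (50.0%) in VILI PBEF+/-, where 30.1% were lower. The ages of VILI PBEF+/- and PBEF+/- differ, so that separation cannot be assigned to ventilation. On plain _at probe sets, which the array design marks as matching 1 transcript, 19 members could be tested and the median difference of VILI PBEF+/- from PBEF+/- was 0.01. Most of these probe sets were dim, and 9 of the 19 differences were below 0. The bright ones, of Rpsa, Rps15, Rpl27, Rpl22, Rpl19 and Rplp0, were all lower in VILI PBEF+/-. Their means were 13.23, 13.50, 13.42, 13.04, 14.30 and 14.98 in PBEF+/-. In VILI PBEF+/- they were 13.02, 13.36, 13.28, 12.91, 14.23 and 14.96.

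Without the 2 arrays, limma called 4 members in VALI against Control (8.70%), beside 17% of all genes, and 6 members in VILI PBEF+/- against PBEF+/- (13.0%), beside 26.4% of all genes. In the average ventilation difference 16 members were called lower (34.8%), beside 24.6% of all genes, and 3 were called higher (6.52%), beside 14.9%. The 16 lower members were all bright, and the 3 higher ones, Rpl12, Rps25 and Rpl7l1, were all among the 10 dimmer genes. The largest fall among them was that of Rps4x, at -0.24.

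**Figure D2:**
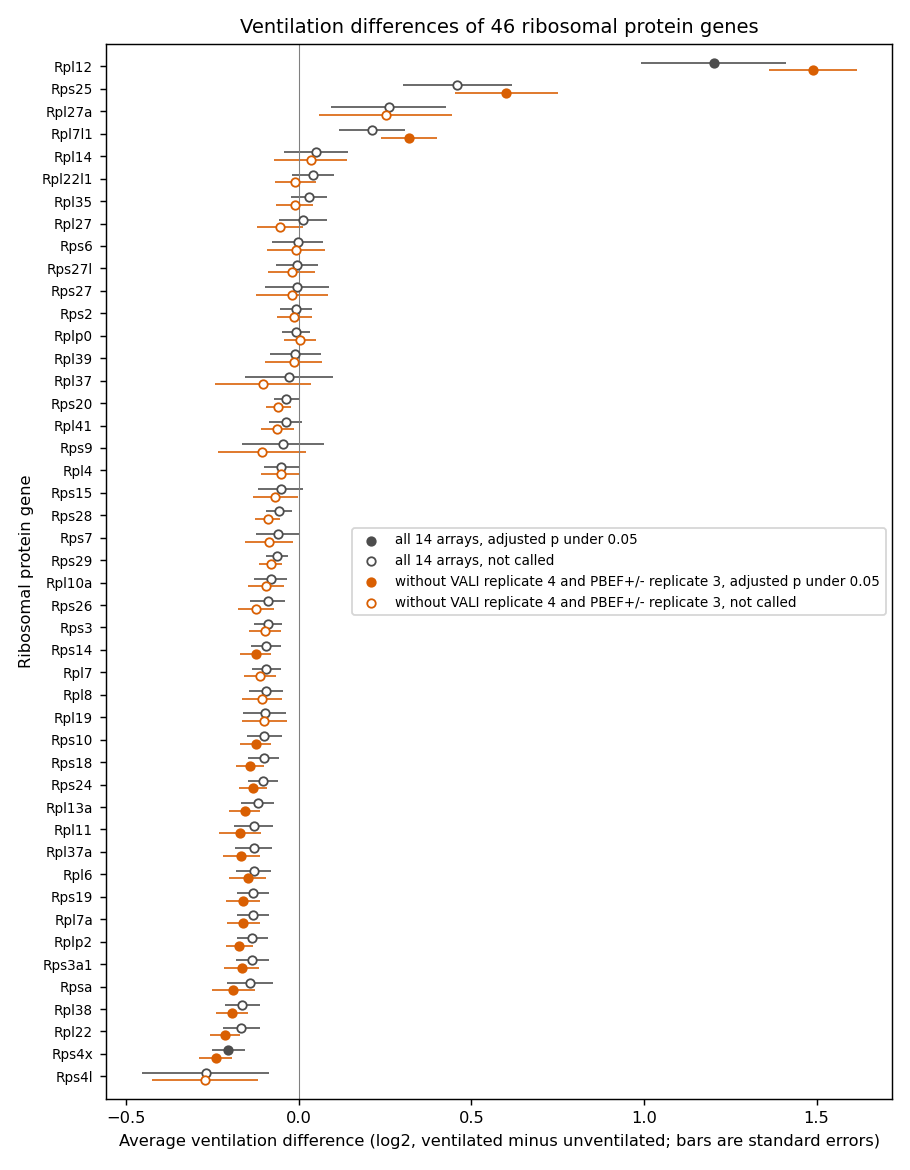
The average ventilation difference in log2 units (x axis), with its standard error, is drawn for each of 46 ribosomal protein genes (y axis), grey for all 14 arrays and orange without VALI replicate 4 and PBEF+/- replicate 3. Filled points passed an adjusted p under 0.05; with all arrays only Rpl12 (1.20) and Rps4x (-0.20) are filled.

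Rps4x, the X-linked small subunit protein S4, was the only member called lower with all arrays. Its log2 values were 15.21, 15.18, 15.09 and 15.29 in Control and 14.96, 14.89, 15.07 and 15.12 in VALI. They were 15.10, 15.19 and 15.05 in PBEF+/- and 14.88, 14.89 and 14.89 in VILI PBEF+/-. VILI PBEF+/- was below all unventilated arrays, and VALI overlapped Control through VALI replicate 4. The average ventilation difference was -0.20 ± 0.05 (SE), a 1.15-fold lower value, with an adjusted p of 0.0347 in limma. In each of the 3 groups that held both sex patterns, the arrays with Eif2s3y above Xist had the highest Rps4x values. All 3 VILI PBEF+/- arrays had the female pattern. With the sex pattern as a covariate, the difference was -0.17 and its adjusted p in limma was 0.0615. With the 3' to 5' ratio of Actb and Gapdh, a measure of RNA integrity, as a covariate, it was -0.20 with an adjusted p of 0.128 in limma. Leaving out any one of 11 arrays, all but VALI replicate 4, PBEF+/- replicate 3 and VILI PBEF+/- replicate 3, ended the call. Over all 14 arrays left out singly, whether or not the call ended, the difference lay between -0.18 and -0.22. The call also ended with no filter and with no variance trend, and as a mean over its probe sets, where the difference was -0.096 (adjusted p = 0.183, limma). The second probe set of Rps4x had a mean of 1.57 and an average difference of 0.01.

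Rpl22, Rplp2 and Rpl38 had the next lowest p-values among bright members. They were not called with all arrays, and were called without VALI replicate 4, without PBEF+/- replicate 3, without both and with array weights. Rpl22, a large subunit protein known for its part in T cell development, read 14.32, 14.21, 14.17 and 14.18 in Control and 14.07, 13.97, 14.05 and 14.29 in VALI. Its values were 14.24, 14.18 and 14.12 in PBEF+/- and between 13.96 and 14.001 in VILI PBEF+/-. VALI replicate 4 alone reached the Control values. Its average ventilation difference was -0.17 ± 0.05 with all arrays (adjusted p = 0.0626, limma) and -0.21 ± 0.04 without the 2 arrays (adjusted p = 0.00321, limma). The other probe sets of Rpl22 had average differences of -0.11 and -0.39.

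Rplp2, an acidic protein of the stalk that recruits elongation factors, read 15.30, 15.23, 15.24 and 15.15 in Control and 15.09, 15.08, 15.08 and 15.30 in VALI. It read 15.21, 15.17 and 15.13 in PBEF+/- and 15.04, 14.97 and 14.97 in VILI PBEF+/-. Here too VALI replicate 4 stood with the Control arrays. The average difference was -0.13 ± 0.04 (adjusted p = 0.0710, limma) with all arrays and -0.17 ± 0.04 (adjusted p = 0.00475, limma) without the 2. Rpl38, a small protein known for its role in the translation of Hox messenger RNAs, read between 14.56 and 14.67 in Control and 14.45, 14.37, 14.52 and 14.69 in VALI. It was 14.64, 14.50 and 14.58 in PBEF+/- and 14.34, 14.40 and 14.33 in VILI PBEF+/-, which did not overlap. Its average difference was -0.16 ± 0.05 (adjusted p = 0.0609, limma), and -0.19 ± 0.05 without the 2 arrays (adjusted p = 0.00701, limma).

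**Figure D3:**
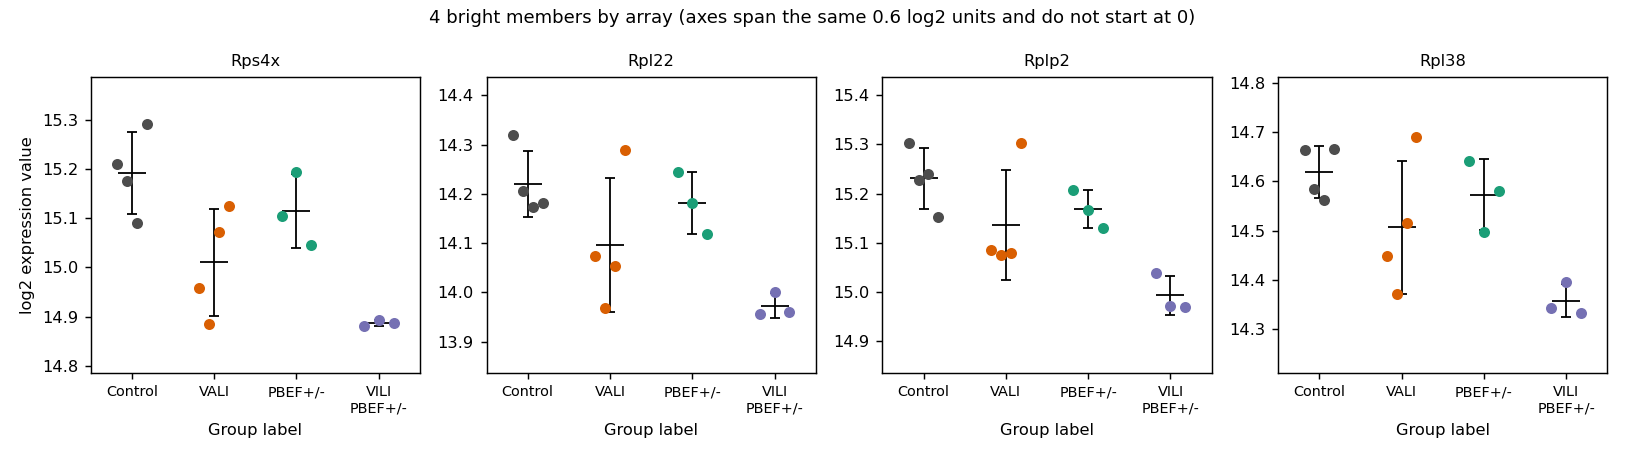
Log2 expression values (y axis, each spanning the same 0.6 units) of Rps4x, Rpl22, Rplp2 and Rpl38 by group label (x axis); points are arrays, and black marks are the mean with its SD. The 3 VILI PBEF+/- arrays are the lowest or near the lowest, and 1 VALI array, replicate 4, sits with Control.

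Rpl12, a large subunit protein at the base of the stalk, showed the largest average ventilation difference of the 46 tested members, on a dim probe set. Its log2 values were 6.03, 5.64, 5.66 and 5.30 in Control and 7.26, 7.38, 7.23 and 6.79 in VALI. They were 6.47, 6.49 and 7.83 in PBEF+/- and 7.86, 7.89 and 7.71 in VILI PBEF+/-. All VALI arrays lay above all Control arrays, whereas PBEF+/- replicate 3 reached the VILI PBEF+/- values. The difference of VALI from Control was 1.51 ± 0.27 (SE; adjusted p = 0.0809, limma), and that of VILI PBEF+/- from PBEF+/- was 0.89 ± 0.32 (adjusted p = 0.177, limma). The average of both was 1.20 ± 0.21, or 2.30-fold higher, and passed (adjusted p = 0.0280, limma). Without the 2 arrays the difference of VALI from Control was 1.63 ± 0.16 (adjusted p = 0.000122, limma) and that of VILI PBEF+/- from PBEF+/- was 1.34 ± 0.20 (adjusted p = 0.000907, limma). Leaving out any one of 8 arrays (Control replicate 2, VALI replicates 1 to 3, PBEF+/- replicates 1 and 2, or VILI PBEF+/- replicates 1 and 2) ended the call of the average, with limma's adjusted p at up to 0.0883. Over all 14 arrays left out singly, whether or not the call ended, the difference lay between 1.09 and 1.43. Without any one of these 8 arrays, limma called 0 genes in the average difference. The call also ended with the RNA quality covariate (1.12, adjusted p = 0.110, limma) and with the sex pattern covariate (1.11, adjusted p = 0.0526, limma).

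The probe sets annotated to Rpl12 together with other symbols did not share this rise. One, annotated to Gm11425 and Rpl12, had group means of 13.69 in Control, 13.73 in VALI, 13.69 in PBEF+/- and 13.53 in VILI PBEF+/-. The other, annotated also to Gm15793 and Gm32899, had 13.88, 13.88, 13.89 and 13.70. Their average ventilation differences were -0.06 and -0.09. The Rpl12 value of 1.20 is therefore a result of 1 probe set.

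Rps25, a small subunit protein needed for initiation at some viral internal entry sites, also read higher in VALI on its own probe set. It read 8.08, 7.33, 7.45 and 7.84 in Control and 8.36, 8.41, 8.75 and 8.36 in VALI. It read 8.30, 8.01 and 8.90 in PBEF+/- and 8.71, 8.39 and 8.47 in VILI PBEF+/-. VALI lay above Control in every array, which held for 2 of 46 members, Rpl12 and Rps25 (4.35%), and for 4.7% of all genes. The difference of VALI from Control was 0.80 ± 0.21 (adjusted p = 0.116, limma) with all arrays and 0.83 ± 0.19 (adjusted p = 0.0133, limma) without the 2. In VILI PBEF+/- against PBEF+/- the difference was 0.12 ± 0.24 (adjusted p = 0.771, limma). The probe set annotated to Rps25, Gm6988 and Gm4963 had group means of 14.12, 14.07, 14.11 and 13.99 in Control, VALI, PBEF+/- and VILI PBEF+/-.

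A dim probe set of Rps9 had a similar profile, noticed after its values were seen. It read 5.62, 5.08, 4.81 and 4.63 in Control and 6.17, 5.75, 6.51 and 5.81 in VALI. It read 5.59, 5.52 and 7.16 in PBEF+/- and 6.95, 6.34 and 6.64 in VILI PBEF+/-. The other probe sets of Rps9 had average ventilation differences of 0.03 and -0.04, against 0.79 for this one (adjusted p = 0.0731 where plain _at probe sets were used, limma). A dim probe set annotated to Rpl3, Gm5879 and Gm12816, also noticed afterwards, had an average difference of 1.32. Its means were 6.72 in Control, 8.38 in VALI, 7.73 in PBEF+/- and 8.71 in VILI PBEF+/-. The bright probe set of Rpl3 and Gm12816 had -0.12. Other dim probe sets of several symbols went both ways, such as 0.44 with Rpl24 and -0.30 with Rpl21. Over the probe sets of members that passed the filter on low values, 12 of 23 with a mean of 12 or less (52.2%) were above 0 in the average ventilation difference, beside 44.8% of all such probe sets on the array. Of those with a mean above 12, 9 of 67 (13.4%) were above 0, beside 46.2% of all such probe sets.

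The neutrophil markers moved with Rpl12 in part. The mean of 5 measured markers, of which 4 or 5 exceeded the array median in every array of each group, was 7.02 to 8.02 in Control and 11.04 to 11.79 in VALI replicates 1 to 3. It was 7.17 in VALI replicate 4, 7.17 and 8.65 in PBEF+/- replicates 1 and 2, 11.5 in PBEF+/- replicate 3, and 11.6 to 11.7 in VILI PBEF+/-. VALI replicate 4, with Rpl12 at 6.79, was low in these markers, and its Rpl12 value still lay above all 4 Control arrays. PBEF+/- replicates 1 and 2, with Rpl12 at 6.47 and 6.49, also lay above Control while their marker means were in or near the Control range. The part of these cells in the Rpl12 difference was not tested. In whole lung, more cells of a type and more RNA per cell cannot be told apart.

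**Figure D4:**
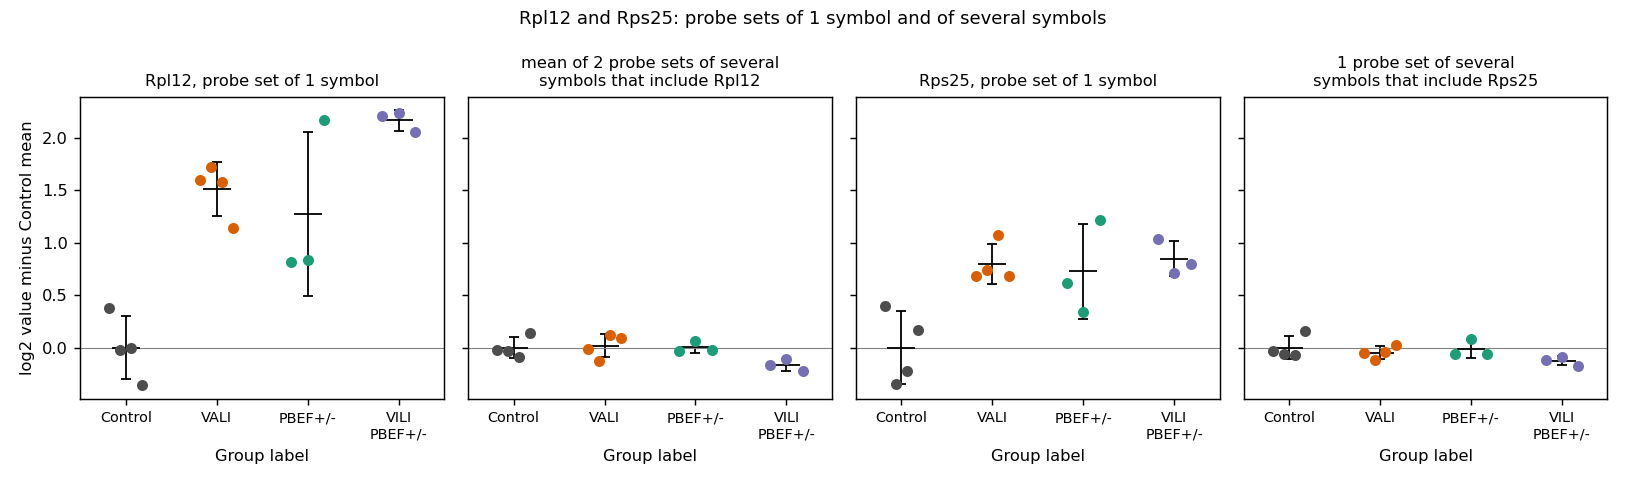
Log2 values minus the Control mean (y axis) by group label (x axis) for the probe sets of Rpl12 and Rps25 alone and for those annotated to them and other symbols; points are arrays, black marks the mean with its SD. The single-symbol probe sets are higher by 1.51 and 0.80 in VALI than in Control, while those with several symbols stay near 0.

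Of the paralogs on the array, 6 were members. Rpl7l1, a nucleolar homologue of Rpl7, read 10.56, 10.58, 10.70 and 10.85 in Control and 10.67, 10.66, 10.89 and 10.38 in VALI. It read 10.35, 10.41 and 10.76 in PBEF+/- and 10.84, 10.91 and 11.10 in VILI PBEF+/-. On this brightest of its probe sets, VILI PBEF+/- was above every PBEF+/- array, whereas VALI and Control overlapped. The difference of VILI PBEF+/- from PBEF+/- was 0.45 ± 0.15 (adjusted p = 0.162, limma), and 0.57 ± 0.12 without the 2 arrays (adjusted p = 0.00732, limma). The difference of VALI from Control was -0.02 ± 0.13 (adjusted p = 0.938, limma). The interaction, which tests whether these responses differ, was 0.47 ± 0.19 and was not called (adjusted p = 0.882, limma). All 3 probe sets of Rpl7l1 had positive average differences, of 0.21, 0.31 and 0.36. The separation and the contrast with VALI did not hold on the dimmer ones, with 0.31 and 0.36. There PBEF+/- replicate 3, at 9.18 and 8.28, lay above VILI PBEF+/- replicate 1, at 9.16 and 8.18. VALI means of 9.07 and 8.05 were above Control means of 8.90 and 7.73.

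Rpl3l, the striated muscle form of Rpl3, was near the floor in 12 arrays, from 2.75 to 2.89, and read 6.31 in VALI replicate 1 and 7.45 in VALI replicate 4. It passed the array median in too few arrays to be tested. The mean of 5 skeletal muscle markers was 12.0 and 12.7 in the same 2 arrays, 7.91 in VILI PBEF+/- replicate 2, and 3.93 to 5.26 elsewhere. Myh1, a fast muscle myosin, read 13.71 and 14.35 in those 2 arrays and 8.42 in VILI PBEF+/- replicate 2, where Rpl3l was 2.89. Heart markers were high in all arrays, with means from 11.2 to 12.4. High Rpl3l values thus occurred in 2 of the 7 ventilated arrays, both of them high in muscle markers.

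Rps4l, an autosomal copy of Rps4, had values from 9.40 to 10.69, and its average difference of -0.27 ± 0.19 was not called (adjusted p = 0.320, limma). Rps27l, a p53-induced relative of Rps27, ranged from 12.54 to 12.87, and Rpl22l1, the paralog of Rpl22, from 12.96 to 13.34. Their average differences were 0.00 ± 0.06 and 0.04 ± 0.06, with adjusted p-values of 0.963 and 0.651 in limma. Rpl39l, a testis-enriched form of Rpl39, stayed between 2.82 and 3.25 and was not tested.

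**Figure D5:**
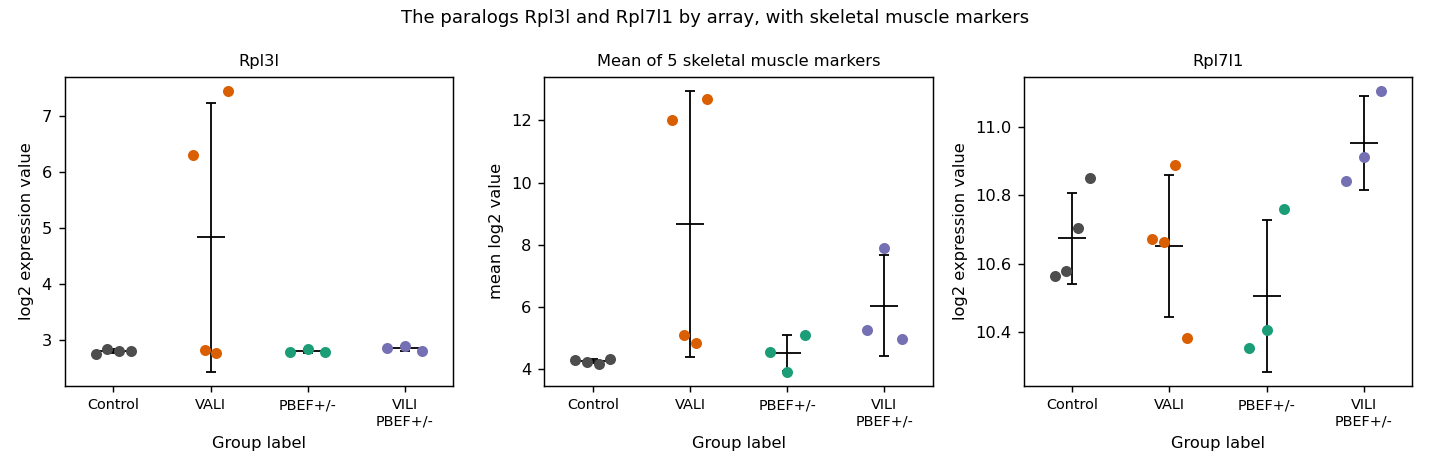
Log2 values (y axes) by group label (x axis) of Rpl3l, of the mean of 5 skeletal muscle markers and of Rpl7l1; points are arrays, black marks the mean with its SD. Rpl3l is above 6 in the same 2 VALI arrays in which the muscle markers are 12.0 and 12.7, and the mean of Rpl7l1 is highest in VILI PBEF+/-, at 10.95.

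By role in the ribosome, the measured genes mostly showed small differences. In the stalk, Rplp0, the scaffold that carries the acidic proteins, had an average difference of -0.01 ± 0.04 (adjusted p = 0.905, limma), beside the lower Rplp2 described above. Rpl12 was higher only on its dim probe set, and the bright ones annotated to it with other symbols had -0.06 and -0.09. Rpl11, which with the ribosomal 5S RNA can bind Mdm2, had -0.13 ± 0.06 (adjusted p = 0.137, limma), and -0.17 ± 0.06 without the 2 arrays (adjusted p = 0.0422, limma). At the exit tunnel, Rpl19, Rpl35 and Rpl39 had -0.10, 0.03 and -0.01, none called in either setting. At the decoding and messenger entry sites, Rps2, Rps3 and Rps15 had -0.01, -0.09 and -0.05, none called in either setting. Of 7 members listed for roles in signalling or selective translation, all were below 0 in the average difference with all arrays and 0 were called. Without the 2 arrays, where 24.6% of all genes and 34.8% of members were called lower, 4 of the 7 were called lower: Rpl22, Rpl38, Rpl13a, a part of the interferon-induced translational silencing complex, and Rpsa, also known as the laminin receptor. Rpl13a had -0.16 ± 0.05 (adjusted p = 0.0173, limma) and Rpsa -0.19 ± 0.06 (adjusted p = 0.0339, limma). Rps6, the target of S6 kinase, ranged from 9.79 to 10.27 on its own probe set and had an average difference of 0.00 ± 0.07. Bright probe sets annotated to Rps6 and Rps6-ps4, with means from 13.66 to 15.65, had -0.20, -0.12, -0.05 and -0.02. Dimmer ones with these symbols had -0.05 to 0.17. By subunit, the median average difference was -0.07 for 24 large and -0.08 for 22 small subunit genes.

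In PBEF+/- against Control, both unventilated, limma called 0 members and 0% of all genes. At an unadjusted p under 0.05, 4 members (8.70%) and 8.26% of all genes passed in limma, and the median was -0.04 for members and -0.09 for all genes. The smallest p-values belonged to Rpl12 (1.27 ± 0.30), Rps25 (0.73 ± 0.22), Rpl14 (-0.30 ± 0.13), Rps6 (-0.23 ± 0.10) and Rpl19 (-0.16 ± 0.09), with adjusted p-values of 0.593 to 0.608. Without PBEF+/- replicate 3 and VALI replicate 4 the Rpl12 difference was 0.82 ± 0.19 (adjusted p = 0.450, limma).

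In VILI PBEF+/- against VALI, both ventilated, 0 members and 0% of all genes were called in limma with all arrays, and 3 members (6.52%) and 10.5% of all genes passed an unadjusted p under 0.05. Rplp2 (-0.14 ± 0.06), Rpl12 (0.66 ± 0.30), Rpl7l1 (0.30 ± 0.14), Rps19 (-0.14 ± 0.07) and Rpl13a (-0.14 ± 0.07) had the smallest p-values, with adjusted p-values from 0.475 to 0.490. The interaction gave 0 called members and 0% of all genes in limma, and 1 member (2.17%) and 5.58% of all genes passed an unadjusted p under 0.05. Its median was -0.08 for members and 0.02 for all genes. These 2 comparisons share arrays with those above and differ in age in the same way.

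Genes that control or share the fate of ribosomal protein messages differed in direction. As background, limma called 465 of all 11360 genes higher and 485 lower in the average difference with all arrays, with a median of -0.05. Of 15 tested translation factors and other genes with terminal oligopyrimidine tracts, 1 was called higher and 1 lower in the average difference, with a median of 0.00. Hnrnpa1, an RNA-binding protein, was higher by 0.33 ± 0.08 (adjusted p = 0.0364, limma) and Tpt1, the translationally controlled tumour protein, was lower, at -0.14 ± 0.04 (adjusted p = 0.0395, limma). Eef1a1, the main elongation factor, had -0.11 ± 0.03 (adjusted p = 0.0575, limma). Of 17 tested genes of mTOR signalling and cap-dependent control, 3 rose and 0 fell, with a median of 0.16. Eif4ebp1, the repressor of the cap-binding protein eIF4E, rose by 0.56 ± 0.11 (adjusted p = 0.0289, limma). Sesn2, a stress-induced inhibitor of mTORC1, rose by 1.29 ± 0.36 (adjusted p = 0.0477, limma) and Larp4, a poly(A)-binding translation factor, by 0.45 ± 0.13 (adjusted p = 0.0481, limma). Of 15 tested genes of initiation and the integrated stress response, 2 rose and 0 fell, with a median of 0.20. These were Eif1a, an initiation factor of start site scanning, at 0.88 ± 0.21 (adjusted p = 0.0346, limma), and Eif4a1, the helicase of the cap complex, at 0.44 ± 0.11 (adjusted p = 0.0395, limma). Of 76 mitochondrial ribosomal protein genes (Mrpl and Mrps), 1 rose, Mrps18b, and 0 fell, with a median of 0.01. Without VALI replicate 4 and PBEF+/- replicate 3, the counts were 1 higher and 5 lower for the oligopyrimidine genes and 5 higher and 2 lower for mTOR and cap control. They were 7 higher and 0 lower for initiation and stress, and 8 higher and 11 lower for the mitochondrial proteins, where 14.9% of all genes were called higher and 24.6% lower. With all arrays, all these calls ended with the RNA quality or the sex pattern covariate, or without any one of the 8 arrays named for Rpl12, since limma then called 0 genes. These lists were not tested as sets.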

How the data were processed

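Total RNA of mouse lung was labelled from 6 µg per sample, per the labels. The authors deposited log2 expression values for 45101 probe sets on 14 arrays; MAS5 and GCRMA are named, without roles, in the submitters' processing notes. Values ran from 0.446 to 16.1, array medians from 4.60 to 4.75, and no further scaling was applied. By GEO's platform annotation, 34958 probe sets had 1 symbol, 932 several, and 9211 are unnamed here; only those with 1 named a gene, through the probe set with the highest mean. The 49 members had 105 probe sets, and 24 had several. Groups came from sample titles. Genes above the array median in at least 3 of 14 arrays were fitted in limma 3.58.1 (R 4.3.3) with all 4 groups and a variance trend, and adjusted p-values are limma's, by Benjamini-Hochberg over 11360 genes. Errors of differences are standard errors, and errors of group means are SDs. On simulated data, the fit recovered 22% of changes of 0.5 and 65% of changes of 1 in VALI against Control, and 45% and 81% in the average ventilation difference. Arrays of the same replicate number did not deviate together (correlations from -0.352 to 0.316), so no pairing was used.

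Members, lists and rules were chosen with earlier results of these data known. Named genes were, per comparison, the called members or, with none, the 5 with the smallest p; the 6 members with the widest range of group means (Rpl12, Rpl3l, Rps25, Rps4l, Rpl7l1 and Rpl27a); the paralogs; members of the role lists; and up to 3 genes of other lists by p. Other lists were markers of lung, blood and muscle cells. Start sequences are from RefSeq. The number of arrays limits the precision. Figures used matplotlib 3.10.9.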

Additional observations from a re-analysis of the deposited data

Results flagged for a closer look

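In groups of 4 arrays, the highest or lowest array was set against the others by Dixon's ratio, the gap to the nearest array over the group's whole range and called past the 95% critical value for 4 samples. Of 60 group tests on 29 named genes and the median of ribosomal protein genes, 3 passed, where chance gives about 3 (1 in 20). Rplp2 in VALI replicate 4 read 15.30 against 15.08 to 15.09 in the other VALI arrays (ratio 0.956). Rps2, a decoding-site protein, read 13.71 in Control replicate 4 against 13.57 to 13.59 (ratio 0.874). Rps25 read 8.75 in VALI replicate 3 against 8.36 to 8.41 (ratio 0.859). Rpl27a, an abundant large subunit protein with a dim probe set here, had one of the widest ranges of group means and values from 7.42 to 8.57, and passed in neither group of 4.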

How the results depend on the processing

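The median log2 difference of ribosomal protein genes stayed below 0 under every alternative run in all 6 comparisons, except on plain _at probe sets in VILI PBEF+/- against PBEF+/- (0.007). On plain _at probe sets, for which 19 members passed the filter, it was -0.022 in VILI PBEF+/- against VALI, -0.015 in the interaction and -0.006 in the average ventilation difference. Most of these 19 probe sets were dim, unlike those of the main fit. Centring arrays on the median gave -0.015 in the interaction. Leaving out single arrays gave -0.103 to -0.024 in the interaction, and the value nearest 0 was without VALI replicate 4. Counts of called members moved more. With array weights, which downweight arrays that depart from their group, 17 of 46 members and 4689 of 11360 genes were called in VALI against Control. In VILI PBEF+/- against PBEF+/- these counts were 12 and 3363. They were 2 and 1711 between the ventilated groups, and 30 and 5751 in the average. Leaving out 1 array gave 0 to 2 members in VALI against Control (1 of 680 called genes without VALI replicate 4, 2 of 288 without PBEF+/- replicate 3), 0 to 3 in VILI PBEF+/- against PBEF+/- (3 of 2157 without PBEF+/- replicate 3) and 0 to 14 in the average (14 of 2698 without VALI replicate 4, 10 of 3419 without PBEF+/- replicate 3). Leaving out both gave 4 of 1933, 6 of 3003 and 19 of 4485 called genes, so that counts over all 11360 genes rose too. Only the groups compared gave 1 of 46 members in VALI against Control, beside 27 of 11360 genes. In the average, 1 of 49 members was called with no filter, beside 99 of all genes. On plain _at probe sets 1 of 19 members was called, beside 940 genes. With no variance trend 1 of 46 members was called, beside 669 of 11360 genes. With the RNA quality or the sex pattern covariate, 0 members and 0 of all genes were called. The sex pattern covariate and the separation counts without 2 arrays were chosen after seeing the data. With the replicate number as a block, 2 of 46 members were called in the average, as without it, beside 969 of 11360 genes. In the other comparisons 0 members and 0 of all genes were called with this block.

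Of 1352 alternative values of named members, 1217 kept their direction and side of the threshold, and 45 changed sign, none of them called in the main fit. Rps3 in VALI against Control was 0.005 on plain _at probe sets. In the average, Rpl22l1 was -0.011 with quantile normalisation and -0.010 without both arrays. Rpl35 was -0.009 as a mean over probe sets and -0.012 without both arrays, and Rpl39 was 0.004 with quantile normalisation. Rplp0 was 0.001 with median centring, 0.039 with quantile normalisation and 0.003 without both arrays. Rps2 was 0.002 with median centring and 0.001 with the sex covariate. Rps27l was 0.004 with median centring and 0.003 with the RNA quality covariate, and Rps6 was 0.031 as a mean over probe sets and 0.006 with median centring. Rps9 was 0.258 as a mean over probe sets, 0.789 on plain _at probe sets, 0.199 with array weights and 0.009 with the sex covariate. Leaving out single arrays gave -0.003 to 0.055 for Rpl35, -0.027 to 0.007 for Rpl39, -0.023 to 0.006 for Rplp0, -0.025 to 0.011 for Rps2, -0.029 to 0.024 for Rps27l, -0.041 to 0.025 for Rps6 and -0.150 to 0.055 for Rps9. The causes were not tested. Dim probe sets limit Rpl12 and Rps25.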
